A study of Homo sapiens with 36 samples.

Results

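The matrix metalloproteinases and their tissue inhibitors were examined in A549 cells, an established human lung adenocarcinoma line, as 10 of the 63677 genes counted in the RNA-seq data. The members were taken by symbol from a list drawn up with earlier results of these data known: the metalloproteinases MMP1, MMP2, MMP7, MMP9, MMP14, MMP19 and MMP24 and the inhibitors TIMP1, TIMP2 and TIMP3, each matched through its Ensembl identifier. A549 cells were cultured with interleukin-1β (IL-1β) at 1 ng/ml and collected at days 6, 15 and 21 of exposure, or were exposed for 21 days and then kept without the cytokine for 6, 15 or 30 days. Untreated A549 cells collected at the same 6 time points served as controls, and each of the 12 groups has 3 replicates, which gives 36 libraries of 1 cell line. The design asks which genes respond to prolonged IL-1β and which of these responses outlast its withdrawal. Nothing in the labels says that replicates came from separate cultures, so the p-values measure the spread between these libraries, which may be technical.

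Matrix metalloproteinases are zinc-dependent endopeptidases that are made as inactive precursors and, once activated, cut collagens, laminins, other matrix proteins and many cell surface proteins. The gelatinases MMP2 and MMP9 cut denatured and basement membrane collagen, MMP1 is the interstitial collagenase, MMP7 or matrilysin is the small epithelial member, MMP19 is a further secreted member, and MMP14 and MMP24 are held in the plasma membrane. TIMPs bind the active site of these enzymes and block them, and TIMP2 also takes part with MMP14 in activating the MMP2 precursor at the cell surface. RNA levels show neither activation nor inhibition of the proteins.

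Between 9116032 and 23570026 reads per library, with a median of 15902700, were counted on genes. In 11 libraries, 11.8% to 24.6% of these reads lay on mitochondrial genes, against 5.61% to 7.75% in the other 25. These 11 comprise 6 control and 5 IL-1β or withdrawn libraries, and 8 of them were collected after withdrawal. Of the 11, 8 are a replicate 2, so leaving out these libraries and leaving out replicate 2 are overlapping checks. Leaving out the 11 leaves 1 control at day 6 and 1 at day 15 after withdrawal, whose spread is then assumed to be that of the other groups. For the members, results that rest on them are given with and without them. Values of single genes of the other lists are given from the fit over all libraries only. The epithelial markers of A549 were high (8 genes, summing to 10766 to 17785 CPM in controls; CPM are counts scaled to 1000000 counts per library), although EPCAM stood at only 0.232 to 1.63. That sum was 4252 to 6357 with IL-1β and 6324 to 13063 after withdrawal. Most markers of other cells were low. Those with reads in every library were COL1A1 (0.798 to 3.44 CPM), CD14 (1.67 to 16.4), ITGAM (3.44 to 14.6) and LYZ (0.218 to 1.17). The 9 fibroblast markers summed to 1.14 to 4.46 CPM in controls, 2.28 to 3.48 with IL-1β and 1.43 to 2.44 after withdrawal, and COL3A1, LUM and THY1 had 3 or fewer counts in every library. The 7 leukocyte markers summed to 9.39 to 20.2, 7.71 to 31.1 and 10.2 to 16.8, with PTPRC, CD3E and MS4A1 at 3 or fewer counts in every library, and the 4 endothelial markers found in the tables summed to at most 0.405. In bulk RNA, a smaller share of cells expressing a gene and less RNA per cell cannot be told apart.

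Levels are given in CPM, scaled between libraries by edgeR's TMM method, in the order of replicates 1, 2 and 3. Differences between IL-1β and control are log2 fold changes from edgeR's quasi-likelihood model, with p-values adjusted by the Benjamini-Hochberg method over 19180 genes. Their standard errors (SE) are not an output of the model. Each was calculated back as the absolute log2 fold change divided by the square root of the test's F statistic. The 95% intervals of log2 values use these SE with 24 degrees of freedom, so both are approximate. A gene was called when the adjusted p was under 0.05 and the fold change over 2, the thresholds of the study. Only 8 of the 10 members had enough reads to be tested. MMP2 and MMP9 passed that filter through IL-1β or withdrawn libraries alone: 11 and 8 of those 18 libraries, and 0 of 18 controls, reached its level of 0.629 CPM before TMM scaling. A member that enters in this way had to be higher with IL-1β somewhere, so counts and medians over the tested members are a description.

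Per kilobase of exon, the order of the members in the 18 control libraries ran from the inhibitors and MMP24 down to genes with almost no reads. Median RPKM values (CPM divided by the exon length in kilobases) were 36.8 for TIMP1, 14.3 for TIMP2 and 10.7 for MMP24, and the ranges of these neighbours overlapped. MMP7 followed at 1.24 RPKM, with no control library as high as the lowest MMP24 value, and MMP14 at 0.497, with no control library as high as the lowest MMP7 value. Below these came MMP19 at 0.208, MMP2 at 0.0788 and MMP9 at 0.0506 RPKM, each overlapping its neighbour. MMP1 and TIMP3 had a median of 0. In the 9 libraries with IL-1β, the order of the first 3 was the same, at 53.5, 18.6 and 7.60 RPKM. MMP19 (0.504), MMP7 (0.441), MMP14 (0.389), MMP2 (0.337) and MMP9 (0.282) then lay in overlapping ranges, whereas in controls MMP7 stood apart above the other 4.

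**Figure D1:**
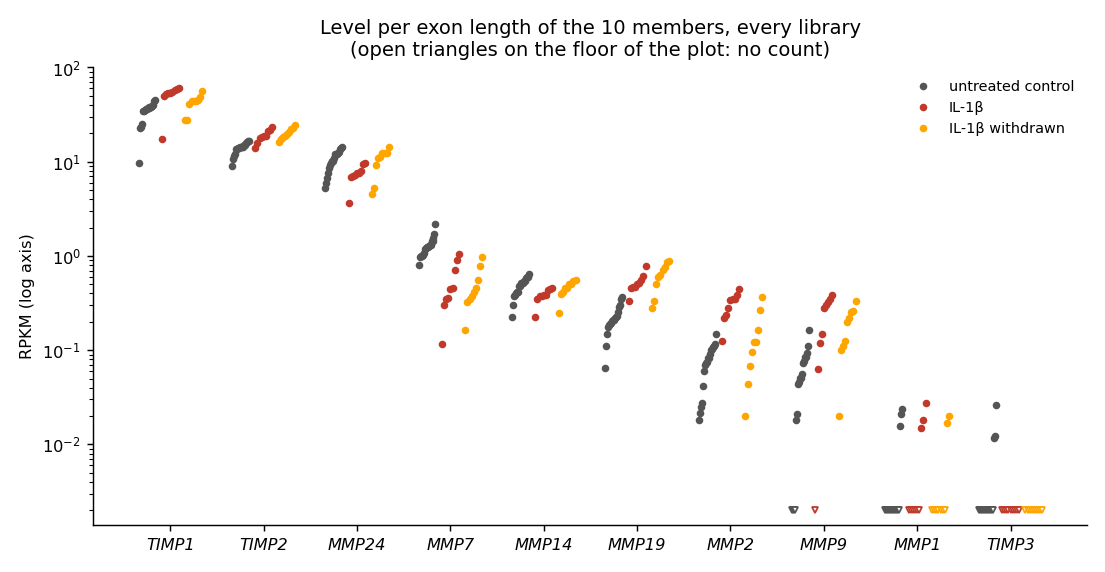
RPKM (log axis) of the 10 members in every library, in the order of their medians in controls; grey points are the 18 untreated libraries, red the 9 with IL-1β and orange the 9 after withdrawal, and open triangles at the bottom are libraries without a count. TIMP1, TIMP2 and MMP24 lie above all other members in every control library, and MMP1 and TIMP3 have almost no counts.

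MMP1, on GRCh37 chromosome 11 (102660132 to 102668891), was not detectable as an expressed gene at this depth. It had 8 counts over all 36 libraries, never more than 1 in a library, of which 3 fell in control, 3 in exposed and 2 in withdrawn libraries. TIMP3, the matrix-bound inhibitor on chromosome 22 (33197691 to 33259028), had 4 counts, all in 3 control libraries, with at most 2 in 1 of them. No fold change is given for either gene, since all groups lie at or under the floor of 3 counts per library, which corresponds to 0.119 CPM in the deepest and 0.387 CPM in the shallowest library. Such floors cover counting error only.

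At the 6 time points, 8 of the 48 comparisons of a tested member passed both thresholds, 6 higher and 2 lower, and they belong to MMP2, MMP7 and MMP19. At day 6 of IL-1β, 0 of the 8 tested members were called by edgeR's quasi-likelihood test or by DESeq2, where 2.77% of all genes tested were, and 3 members had an unadjusted edgeR p under 0.05. At day 15, MMP2 and MMP19 were called higher (all genes: 4.24%, and 1.94% higher), and at day 21 the same 2 genes were higher and MMP7 was lower (4.26%, with 2.19% higher and 2.06% lower). After withdrawal, MMP19 was higher and MMP7 lower at day 6 (1.8%, with 1.08% higher and 0.725% lower), MMP19 alone was higher at day 15 (0.954%, and 0.594% higher), and 0 members were called by edgeR at day 30 (0.897%), where 4 had an unadjusted p under 0.05 and DESeq2 called 1, MMP7. Over the 8 tested members, the median log2 fold change was 0.44, 0.23 and 0.48 at the 3 times of exposure and 0.50, 0.53 and 0.36 after withdrawal, with the median of all genes tested between -0.02 and 0.02. The members' median includes MMP2 and MMP9, which entered the test through IL-1β or withdrawn libraries alone. It is therefore a description, and its distance from the median of all genes is not a result about the family.

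**Figure D2:**
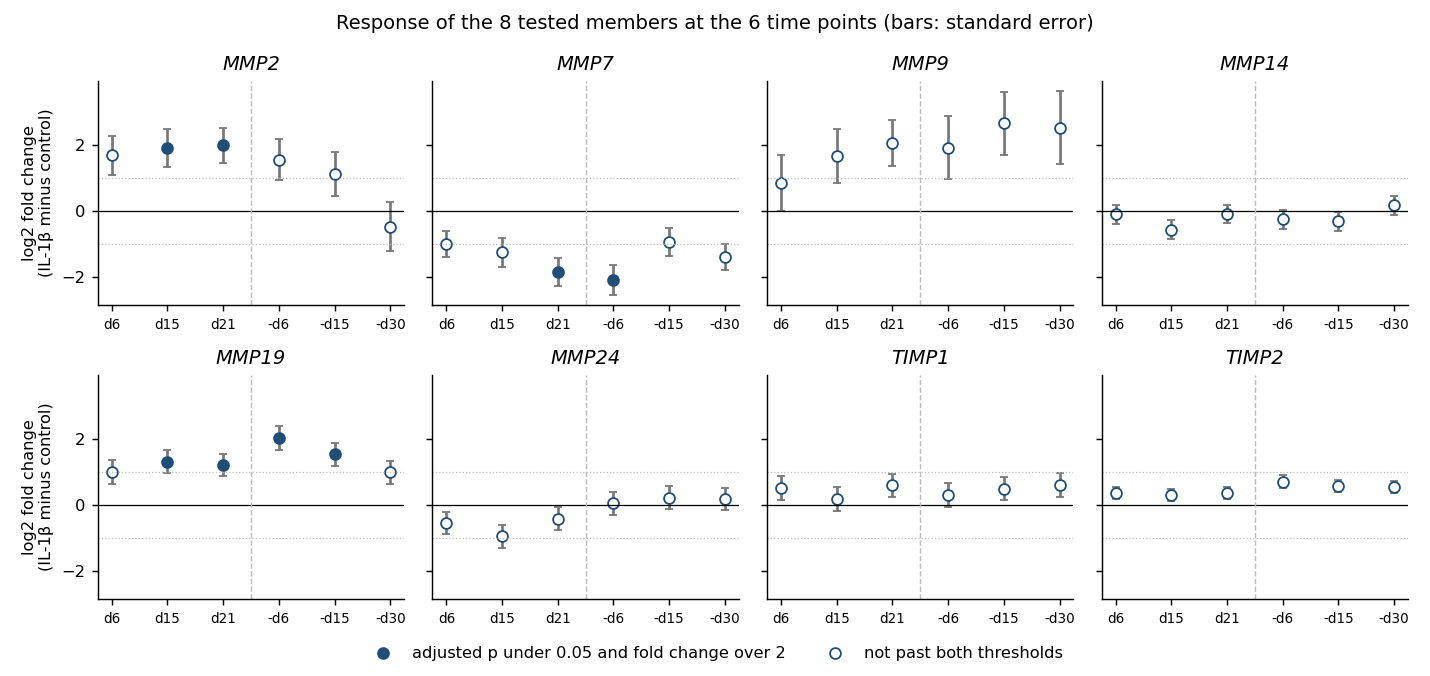
Log2 fold change (IL-1β minus control of the same time point) of the 8 tested members from edgeR's quasi-likelihood model; d6, d15 and d21 are days of exposure, -d6, -d15 and -d30 days after withdrawal (right of the dashed line), bars are the SE, dotted lines mark a fold change of 2, and filled points passed both thresholds. MMP2 and MMP19 have filled points above 0, MMP7 below 0, and the points of MMP14, TIMP1 and TIMP2 are all open. At d6, -d6, -d15 and -d30 the MMP9 controls had 3 or fewer counts in every library, so those points depend on the model's prior.

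MMP2, gelatinase A on chromosome 16 (55423612 to 55540603), was low in control cells and called higher at days 15 and 21 of IL-1β. Since it entered the test through IL-1β or withdrawn libraries alone, its calls describe these libraries and are not independent of the filter. At day 6 it was at 0.196, 0.696 and 0.355 CPM in control cells and at 1.59, 1.83 and 0.585 CPM with IL-1β. At day 15 the control libraries held 0.118, 0.325 and 0.544 CPM and the IL-1β libraries 1.65, 1.10 and 1.03 CPM. At day 21 they held 0.285, 0.483 and 0.478 CPM and 1.30, 1.65 and 2.09 CPM. Every IL-1β library was thus above every control at days 15 and 21, while at day 6 the third IL-1β library lay below the second control. The log2 fold change was 1.91 (SE 0.58, edgeR adjusted p = 0.0444) at day 15 and 1.99 (SE 0.54, edgeR adjusted p = 0.0202) at day 21, a fold of 3.75 and 3.98. Day 6 gave 1.69 (SE 0.59, edgeR adjusted p = 0.130).

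These MMP2 values rest on few reads, 2 to 12 per control library and 10 to 51 per IL-1β library at days 15 and 21. The ratio of summed counts at day 21, 97 against 25, was 4.09 after scaling, with an exact 95% interval of 2.62 to 6.63 that covers counting error only. Without the 11 libraries of high mitochondrial share, the log2 fold change was 2.01 (edgeR adjusted p = 0.0255) at day 15 and 2.04 (edgeR adjusted p = 0.0118) at day 21. With replicate 1 of all groups left out, it was 1.30 (edgeR adjusted p = 0.554) and 1.96 (edgeR adjusted p = 0.327), and leaving out replicate 2 (2.01, edgeR adjusted p = 0.0942, and 2.11, edgeR adjusted p = 0.0876) or, at day 21, replicate 3 (1.92, edgeR adjusted p = 0.0705) also ended the call.

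After withdrawal, MMP2 did not pass the test. At day 6 the controls held 0.387, 0.0864 and 0.515 CPM and the withdrawn cells 0.765, 0.580 and 1.74 CPM. At day 15 they held 0.390, 0.510 and 0.102 CPM and 0.321, 0.582 and 1.26 CPM. At day 30 they held 0.430, 0.129 and 0.344 CPM and 0.204, 0.455 and 0.0935 CPM. The withdrawn libraries were all above the controls at day 6, lay across them at day 15 and had the lowest value of the 6 at day 30. Log2 fold changes of 1.56 (SE 0.62), 1.12 (SE 0.66) and -0.47 (SE 0.74) came with edgeR adjusted p = 0.291, 0.718 and 0.894. The response at day 30 after withdrawal was lower than at day 21 of exposure by a log2 difference of -2.46 (SE 0.92, 95% interval -4.37 to -0.56), which did not pass the adjustment over all genes (edgeR adjusted p = 0.452).

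MMP9, gelatinase B on chromosome 20 (44637547 to 44645200), had 0 to 5 counts in every control library. With 21 days of IL-1β it was at 0.706, 0.898 and 0.821 CPM, against 0.171, 0.181 and 0.199 CPM in controls. At day 15 the IL-1β libraries held 0.751, 0.349 and 0 CPM against 0.118, 0.217 and 0.0495 CPM in controls. The groups were apart at day 21 and overlapped at day 15, where the IL-1β library without a count is one of those with a high mitochondrial share. The log2 fold change at day 21 was 2.08 (SE 0.70, edgeR adjusted p = 0.0805) and at day 15 it was 1.67 (SE 0.82, edgeR adjusted p = 0.295), so neither was called. The day 21 value passed when the high mitochondrial share entered as a covariate (2.15, edgeR adjusted p = 0.0290), in a separate fit of that time point (2.09, edgeR adjusted p = 0.00440) and with a replicate block in the fit (2.10, edgeR adjusted p = 0.0258). It did not pass with any replicate left out (2.00 to 2.13, edgeR adjusted p = 0.165 to 0.396) or without the libraries of high mitochondrial share. Like MMP2, MMP9 entered the test through IL-1β or withdrawn libraries alone, so these values are not independent of the filter.

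After withdrawal MMP9 was at 0.601, 0.232 and 0.290 CPM at day 6, 0.770, 0.509 and 0.466 CPM at day 15, and 0.611, 0.260 and 0.0468 CPM at day 30. The control groups of these 3 time points and of day 6 of exposure had 3 or fewer counts in every library, so their fitted fold changes depend on the model's prior and the counts themselves are given. Summed over 3 libraries, they were 18 against 4 counts at day 6, 29 against 3 at day 15 and 14 against 2 at day 30. The scaled ratios of these counts were 4.34 (exact 95% interval 1.43 to 17.6), 6.67 (2.07 to 34.2) and 6.35 (1.46 to 57.6), from counting error alone. At day 6 of exposure, 16 against 8 counts gave a ratio of 1.80 (0.725 to 4.84). The withdrawn libraries were all above the controls only at day 15, and none of the 4 comparisons passed edgeR's test (adjusted p from 0.251 to 0.894).

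MMP7, matrilysin on chromosome 11 (102391239 to 102401481), is the member called lower. It is the one called member with a promoter in the RefSeq table used here, and the window of 300 bases around its start (build GRCh38.p14, chr11:102530698-102530997, minus strand) is the one member window of the 5 found that held an AP-1 site or a TATA box. The 2 stretches around them are shown 5′ to 3′ with the matched letters in capitals, beginning 67 and 30 bases before the start.
MMP7 AP-1 stretch (chr11:102530796-102530825): aaacactcaaaTGAGTCAcctatttccaca
MMP7 TATA stretch (chr11:102530760-102530789): gctgagaagctaTATAAAtttctgcagtca
The AP-1 search used TGANTCA on both strands, which 7.73% of 34796 RefSeq windows of the same length hold, and the TATA search used TATAAA on both strands, which 11.58% hold. A GC box (GGGCGG on both strands, held by 44.89% of the windows) was in the windows of MMP14, MMP24, TIMP1 and TIMP3 and not in that of MMP7. A match of letters is a description and not a binding site. MMP1, MMP2, MMP9, MMP19 and TIMP2 were not matched.

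In control cells, MMP7 lay between 1.84 and 5.07 CPM in all 18 libraries. At day 6 it was at 3.99, 3.31 and 3.60 CPM in controls and 2.41, 2.12 and 1.02 CPM with IL-1β. At day 15 the values were 2.31, 1.84 and 3.07 CPM and 0.701, 0.813 and 1.66 CPM. At day 21 they were 2.74, 2.29 and 2.95 CPM and 0.272, 0.823 and 1.07 CPM. Every IL-1β library was below every control at all 3 times, with the widest gap at day 21. The log2 fold change was -0.99 (SE 0.40, edgeR adjusted p = 0.235) at day 6, -1.26 (SE 0.43, edgeR adjusted p = 0.0788) at day 15 and -1.86 (SE 0.43, edgeR adjusted p = 0.00473) at day 21, where MMP7 was at 0.276 times its control level.

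After withdrawal MMP7 remained below the controls in every library. At day 6 it was at 3.35, 2.50 and 2.88 CPM in controls and 0.382, 0.812 and 0.869 CPM in withdrawn cells. At day 15 the values were 2.27, 2.86 and 3.05 CPM and 0.962, 2.25 and 1.07 CPM. At day 30 they were 2.37, 2.83 and 5.07 CPM and 0.747, 1.30 and 1.82 CPM. No withdrawn library reached its controls at any of the 3 times, though at day 15 the second withdrawn library lay just under the lowest control. The fitted log2 values were -2.10 (SE 0.45, edgeR adjusted p = 0.00649) at day 6, -0.94 (SE 0.42, edgeR adjusted p = 0.480) at day 15 and -1.40 (SE 0.41, edgeR adjusted p = 0.0974) at day 30. Its response at day 30 after withdrawal did not differ detectably from that at day 21 (log2 difference 0.46, 95% interval -0.74 to 1.66).

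Without the 11 libraries of high mitochondrial share, MMP7 was called at day 15 of IL-1β (-1.67, edgeR adjusted p = 0.0292), day 21 (-1.89, edgeR adjusted p = 0.00984) and day 6 after withdrawal (-2.18, edgeR adjusted p = 0.0498, from a single control), and not at day 30 (-1.46, edgeR adjusted p = 0.167). The day 30 value passed with the mitochondrial share as a covariate (-1.41, edgeR adjusted p = 0.0275). With replicate 1 of all groups left out, day 21 (-1.44, edgeR adjusted p = 0.194) and day 6 after withdrawal (-1.67, edgeR adjusted p = 0.310) no longer passed, nor did they without replicate 2 (-2.01, edgeR adjusted p = 0.0621, and -2.32, edgeR adjusted p = 0.0943).

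MMP19, on chromosome 12 (56229217 to 56236750), was the member called at the most time points. At day 6 it was at 0.915, 1.04 and 0.945 CPM in controls and 2.21, 2.12 and 1.56 CPM with IL-1β. At day 15 the values were 0.828, 1.08 and 0.890 CPM and 2.35, 2.44 and 2.17 CPM. At day 21 they were 0.969, 1.33 and 1.63 CPM and 3.64, 2.62 and 2.87 CPM. Each IL-1β library was above each control at all 3 times, although the lowest IL-1β library of day 6 lay within the range of the day 21 controls. The log2 fold change was 1.01 (SE 0.36, edgeR adjusted p = 0.145) at day 6, 1.31 (SE 0.35, edgeR adjusted p = 0.0189) at day 15 and 1.20 (SE 0.33, edgeR adjusted p = 0.0231) at day 21.

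MMP19 stayed high after IL-1β was taken away. At day 6 after withdrawal the controls held 1.42, 0.864 and 0.687 CPM and the withdrawn cells 4.10, 4.06 and 3.30 CPM. At day 15 they held 0.974, 1.73 and 0.305 CPM and 3.59, 2.33 and 2.79 CPM. At day 30 they held 1.18, 0.515 and 1.03 CPM and 2.92, 1.56 and 1.31 CPM. The withdrawn libraries were above the controls at each time, and at day 30 the lowest was just over the highest control. Withdrawn cells differed from controls by a log2 fold change of 2.02 (SE 0.36, edgeR adjusted p = 0.00100) at day 6, a fold of 4.07, then 1.53 (SE 0.36, edgeR adjusted p = 0.0253) at day 15 and 0.98 (SE 0.36, edgeR adjusted p = 0.284) at day 30. The response at day 6 after withdrawal exceeded that at day 21 by 0.82 (SE 0.49, 95% interval -0.20 to 1.84), which did not pass the test (edgeR adjusted p = 1.00).

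At days 6 and 15 after withdrawal, 2 of the 3 controls and 1 withdrawn library have a high mitochondrial share. Without the 11 such libraries MMP19 gave 1.35 (edgeR adjusted p = 0.00466) at day 15 of IL-1β, 1.29 (edgeR adjusted p = 0.00261) at day 21, 2.44 (edgeR adjusted p = 0.00258) at day 6 after withdrawal and 1.70 (edgeR adjusted p = 0.167) at day 15 after withdrawal, the last 2 from a single control each. With replicate 1 left out the 4 values were 1.24 (edgeR adjusted p = 0.296), 0.89 (edgeR adjusted p = 0.704), 2.25 (edgeR adjusted p = 0.0947) and 1.31 (edgeR adjusted p = 0.694). Without replicate 2, those of exposure were 1.41 (edgeR adjusted p = 0.0695) and 1.29 (edgeR adjusted p = 0.101) and that of day 15 after withdrawal 2.17 (edgeR adjusted p = 0.0834), and without replicate 3 both day 15 values failed, at 1.32 (edgeR adjusted p = 0.0986) and 1.16 (edgeR adjusted p = 0.320).
On the opposite strand, TMEM198B overlaps 17.6% of the MMP19 exon length. Its level was 1.03 to 9.88 CPM with a median of 4.41, and its log2 fold changes were -0.07, -0.47 and -0.17 with IL-1β and -0.13, 0.47 and 0.89 after withdrawal, none of them called. The strand setting of the counting is not given in the sources used here, so reads of the overlap cannot be told apart.

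**Figure D3:**
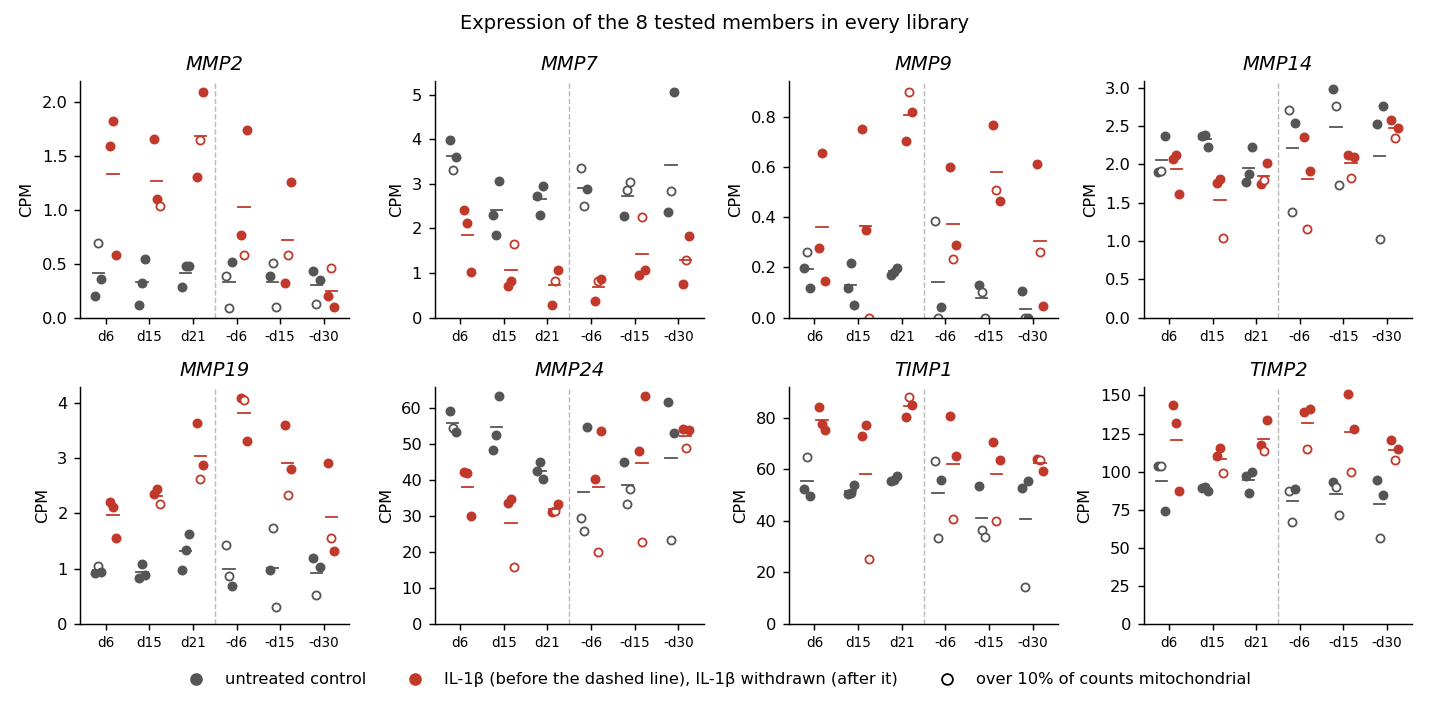
CPM (TMM-scaled, linear axes from 0) of the 8 tested members in every library; grey points are untreated controls and red points IL-1β (left of the dashed line) or IL-1β withdrawn (right of it), short lines are group means of 3 libraries, and open points are libraries with over 10% of counts on mitochondrial genes. The red MMP19 points lie above the grey and the red MMP7 points below the grey at all 6 time points.

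The membrane-bound MMP14 and MMP24 were not called at any time point. MMP14, on chromosome 14 (23305769 to 23318250), activates the MMP2 precursor and lay between 1.03 and 2.99 CPM over all 36 libraries. Its log2 fold changes were -0.10, -0.57 and -0.08 with IL-1β and -0.25, -0.32 and 0.17 after withdrawal (SE 0.28 to 0.29). At day 15 its IL-1β libraries, at 1.75, 1.80 and 1.03 CPM, were all below the controls at 2.37, 2.38 and 2.23 CPM, and the 95% interval of the log2 fold change was -1.15 to 0.01 (edgeR adjusted p = 0.301). At the other 5 times the groups overlapped.

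MMP24, on chromosome 20 (33814493 to 33864801), was by far the most abundant of the 7 metalloproteinases per exon length and made up 69.0% to 88.2% of their summed RPKM, with a median of 83.2%. In controls it was at 59.2, 54.5 and 53.4 CPM at day 6, 48.3, 52.3 and 63.2 CPM at day 15 and 42.3, 44.9 and 40.3 CPM at day 21. With IL-1β it was at 42.2, 41.8 and 30.1 CPM, 33.5, 34.6 and 15.8 CPM, and 31.0, 31.4 and 33.2 CPM. All IL-1β libraries were below their controls at these 3 times, and the lowest, at day 15, has a high mitochondrial share. The log2 fold changes of -0.55, -0.96 and -0.42 (SE 0.35 each) did not pass (edgeR adjusted p = 0.663, 0.115 and 0.837). In the 25 libraries of lower mitochondrial share, day 6 and day 15 gave -0.55 (edgeR adjusted p = 0.0271) and -0.68 (edgeR adjusted p = 0.00561), under a fold change of 2. With replicate 2 left out day 15 passed both thresholds (-1.15, edgeR adjusted p = 0.0294), but that fit keeps the IL-1β library at 15.8 CPM beside the one at 33.5 CPM. After withdrawal the groups overlapped and the log2 fold changes were 0.05, 0.21 and 0.18.

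Within the controls, MMP24 ranged from 23.2 to 63.2 CPM, and its 5 lowest values, 23.2 to 37.6, were in libraries with a high mitochondrial share, while the sixth such control held 54.5. Its antisense neighbour MMP24OS, which together with a second gene overlaps 22.1% of the MMP24 exon length on the opposite strand, was at 8.90 to 49.9 CPM, and its log2 fold changes were -0.43, -0.68 and 0.00 with IL-1β and 0.11, 0.26 and 0.33 after withdrawal, none called. The part of the overlap in the MMP24 values was not tested. Other overlaps were 18.4% of the MMP9 exon length with SLC12A5-AS1 (at most 8 counts in a library), 8.15% of MMP1 and 5.91% of TIMP2 on the opposite strand, and 3.70% of MMP2 and 3.61% of TIMP2 on the same strand. MMP7, MMP14, TIMP1 and TIMP3 had none.

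The inhibitors TIMP1 and TIMP2 were the highest members per exon length and changed by less than 2-fold throughout. TIMP1, on chromosome X (47441807 to 47446188), was at 52.4, 64.6 and 49.6 CPM in controls and 84.2, 77.4 and 75.2 CPM with IL-1β at day 6. At day 15 the values were 50.4, 50.8 and 53.7 CPM and 72.7, 77.1 and 24.9 CPM. At day 21 they were 55.2, 55.9 and 57.2 CPM and 80.2, 88.1 and 84.8 CPM. The groups were apart at days 6 and 21, and at day 15 a single IL-1β library with a high mitochondrial share fell to 24.9 CPM below all controls. The fit over all libraries gave 0.51 (SE 0.35, edgeR adjusted p = 0.740), 0.18 (SE 0.35, edgeR adjusted p = 0.810) and 0.59 (SE 0.35, edgeR adjusted p = 0.574).

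Without the 11 libraries of high mitochondrial share, TIMP1 passed the adjusted p at all 3 times of exposure, with log2 fold changes of 0.65 (edgeR adjusted p = 8.89e-05), 0.54 (edgeR adjusted p = 0.000408) and 0.57 (edgeR adjusted p = 0.000179), each under a fold change of 2. After withdrawal it was at 80.5, 40.5 and 65.3 CPM at day 6, 70.6, 40.0 and 63.6 CPM at day 15 and 63.7, 63.7 and 59.2 CPM at day 30. The controls of these times held 63.1, 33.2 and 55.7 CPM, 53.6, 36.2 and 33.6 CPM, and 52.9, 14.2 and 55.4 CPM. The groups were apart only at day 30, where the control at 14.2 CPM, the lowest of all, has a high mitochondrial share. The log2 fold changes of 0.30, 0.49 and 0.60 did not pass (edgeR adjusted p = 1.00, 0.805 and 0.721), and without the 11 libraries the day 30 value was 0.19 (edgeR adjusted p = 0.686).

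TIMP2, on chromosome 17 (76849059 to 76921469), was the one inhibitor that passed the adjusted p in the fit over all libraries, at day 6 after withdrawal. There the controls held 86.9, 67.1 and 88.4 CPM and the withdrawn cells 139, 115 and 141 CPM, with no overlap. TIMP2 differed by 0.71 on the log2 scale (SE 0.19, edgeR adjusted p = 0.0316), a fold of 1.63, which is under the fold threshold. It was 0.68 (edgeR adjusted p = 0.110) when the 11 libraries rich in mitochondrial reads were left out, with a single control remaining. With IL-1β the log2 fold changes were 0.36, 0.29 and 0.37 and at days 15 and 30 after withdrawal 0.57 and 0.54, with edgeR adjusted p from 0.167 to 0.464. Every IL-1β or withdrawn library was above its controls at 5 of the 6 times, day 6 of exposure being the exception.

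Counted over the 8 tested members, groups did not overlap for 4, 6 and 7 of them at the 3 times of exposure, where 21.8%, 25.4% and 29% of all genes tested did not overlap. After withdrawal it was 4 members at each time, against 10.8%, 10.9% and 11.9% of all genes. MMP2 and MMP9, which entered the test through IL-1β or withdrawn libraries alone, are both among these members at day 21. MMP2 is also among them at day 15 of IL-1β and day 6 after withdrawal, and MMP9 at day 15 after withdrawal. These counts are therefore a description and not a result about the family.

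The summed RPKM of the 3 TIMPs was set against that of the 7 metalloproteinases in each library, as a description of RNA balance and with no test. In controls of days 6, 15 and 21 the ratio of the sums was 3.54 ± 0.537, 3.52 ± 0.393 and 4.60 ± 0.256 (SD, n = 3 each). With IL-1β it was 7.01 ± 0.957, 7.0 ± 0.603 and 8.33 ± 0.243. The ranges were apart at each time, for example 4.33 to 4.84 against 8.08 to 8.57 at day 21. After withdrawal the ratio was 6.40 ± 1.43 against 4.78 ± 1.32 in controls at day 6, 5.15 ± 1.07 against 3.86 ± 0.458 at day 15 and 4.52 ± 0.284 against 3.13 ± 0.348 at day 30, with overlapping ranges at days 6 and 15 and separate ranges at day 30. Since TIMP1, TIMP2 and MMP24 hold most of both sums, the ratio reflects these 3 genes and not the called members.

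**Figure D4:**
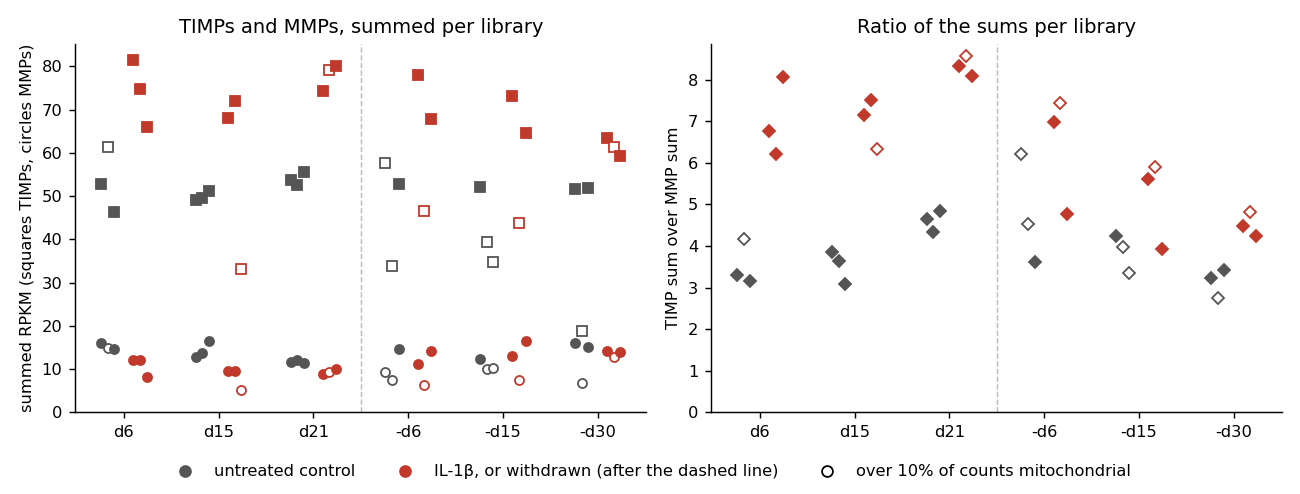
Left, summed RPKM of the 3 TIMPs (squares) and the 7 metalloproteinases (circles) in each library; right, the ratio of the sums; grey is control and red IL-1β or IL-1β withdrawn (right of the dashed line), and open symbols are libraries with over 10% of counts on mitochondrial genes. The ratio lay at 3.08 to 4.84 in controls and 6.21 to 8.57 with IL-1β over the 3 times of exposure.

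For the 3 members called at 2 or more time points, the 3 genes of most similar log2 CPM over the 36 libraries were listed, as a description of libraries that share their treatment groups and differ in depth. For MMP2 they were LAMB3, P4HA2 and BCAR3 (Pearson r 0.816, 0.813 and 0.812; Spearman rho 0.754, 0.750 and 0.788). For MMP7 they were TC2N, RASSF9 and NEO1 (r 0.920, 0.917 and 0.914; rho 0.891, 0.936 and 0.889). For MMP19 they were SLC12A8, NFASC and ITGB3 (r 0.913, 0.891 and 0.870; rho 0.891, 0.907 and 0.875).

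Other genes of the same system were counted from lists of related proteases, activators and substrates. Over all genes tested, the shares called higher were 1.52%, 1.94% and 2.19% at the 3 times of exposure and 1.08%, 0.594% and 0.433% after withdrawal, and those called lower 1.25%, 2.3% and 2.06% and then 0.725%, 0.36% and 0.464%. Of 17 further metalloproteinases and TIMP4, 4 were tested. MMP16, another membrane-type member, was the one called, higher at days 15 and 21: it was at 4.67 ± 1.10 CPM with IL-1β against 2.06 ± 0.761 in controls at day 15 (log2 fold change 1.17, edgeR adjusted p = 0.0226) and at 5.60 ± 0.697 against 1.90 ± 0.210 at day 21 (1.55, edgeR adjusted p = 0.00170; SD, n = 3). Of 31 ADAM and ADAMTS genes, the related adamalysin proteases, 21 were tested, and 1, 5 and 5 were higher at the 3 times of exposure and 4, 1 and 0 after withdrawal, with 1 lower at day 30, ADAMTS9 (-1.13), which is outside the naming rule and was picked after its value was seen. The median log2 fold change of the 21 lay between -0.02 and 0.50, beside -0.02 to 0.02 for all genes tested. ADAMTS14, which removes the amino-terminal propeptide of procollagens, rose from 0.751 ± 0.290 to 6.27 ± 1.29 CPM at day 21 (log2 fold change 3.07, edgeR adjusted p = 2.56e-05) and was still higher at day 6 after withdrawal (2.16, edgeR adjusted p = 0.0139). ADAMTS12 was higher at day 15 (1.34), day 21 (1.46) and day 6 after withdrawal (1.29), and ADAM19 at day 21 (1.21) and day 6 after withdrawal (1.16). ADAM23 was higher at days 15 (1.47) and 21 (1.14), and the low-count genes ADAMTS6 and ADAM28 were called 3 and 2 times. Their control means were at most 0.166 and 0.138 CPM, under the filter level of 0.629, so they entered the test through IL-1β or withdrawn libraries. The 1 gene called at day 15 after withdrawal was ADAM28 (3.99), with controls at only 0.0339 ± 0.0586 CPM. That call was lost with any replicate left out. In separate fits, or with replicate 1 left out, 0 genes of this list were called at day 6 after withdrawal. The counts of this list are therefore a description.

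Activators and binding partners of the metalloproteinases counted 23 genes, of which 20 were tested. Higher were 5, 3 and 6 of them at the 3 times of exposure and 1, 1 and 1 after withdrawal, and lower 1 each at days 15 and 21, beside the shares of all genes given above. Their median log2 fold change lay between 0.21 and 0.34. LCN2, which binds MMP9, was higher at all times of exposure, at 30.6 ± 12.5 CPM against 1.72 ± 0.434 at day 6 (log2 fold change 4.16, edgeR adjusted p = 3.40e-06), and at 0.269 ± 0.420 CPM against 1.00 ± 0.348 at day 6 after withdrawal (edgeR adjusted p = 0.285). The integrin subunit ITGB3 was called at all 6 times, with log2 fold changes of 1.41, 2.25 and 2.16 with IL-1β and 2.11, 1.59 and 1.97 after withdrawal. It was the 1 gene of this list called after withdrawal. Separate fits of each time point lost that call at all 3 times after withdrawal, and leaving out replicate 1 or 2 lost it at days 15 and 30. In the plasminogen system, which can activate several of these precursors, the urokinase gene PLAU (1.29 at day 6 and 1.23 at day 21) and its receptor PLAUR (1.35 and 1.16) were higher, and so was the tissue-type activator gene PLAT (1.06, 1.03 and 1.04 at the 3 times of exposure). The proprotein convertase PCSK6 was lower at days 15 (-1.12) and 21 (-1.20).

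Of 32 matrix and cell surface substrates, 26 were tested. Higher were 6, 7 and 8 with IL-1β and 5, 4 and 2 after withdrawal, and lower 3, 3 and 3 and then 3, 1 and 1, beside the same shares of all genes. Their median log2 fold change lay between -0.01 and 0.34. TNC, the matrix glycoprotein tenascin C, was called at all 6 times, with log2 fold changes of 3.74, 4.16 and 4.42 and then 3.19, 2.05 and 2.60. In separate fits of each time point, however, 0 substrates were called at any time after withdrawal. With replicate 1 left out, 0 were called at days 15 and 30 after withdrawal, and with replicate 2 left out 0 at day 15. LAMB3, a laminin-332 chain, was higher through day 6 after withdrawal (2.73, 2.38, 2.73 and 1.71), as was the growth factor gene HBEGF, whose call reached day 15 after withdrawal (1.82, 2.16, 1.99, 1.59 and 1.06). The basement membrane collagen chains COL4A3 (-2.73 at day 21) and COL4A4 (-2.52) and the adhesion protein gene CDH1 (-2.24) were lower at all times of exposure and at day 6 after withdrawal. The substrate called lower at days 15 and 30 after withdrawal was the fibronectin gene FN1 (-1.07 and -1.74), and the one called higher beside TNC at day 30 was the nidogen gene NID2 (1.69); both lie outside the 6 named for this list and were picked after their values were seen. For reference, all 7 tested genes of an IL-1 response list were higher at each time of exposure, their summed level being 38.5 to 73.3 CPM in controls, 448 to 699 CPM with IL-1β and 63.8 to 143 CPM after withdrawal.

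**Figure D5:**
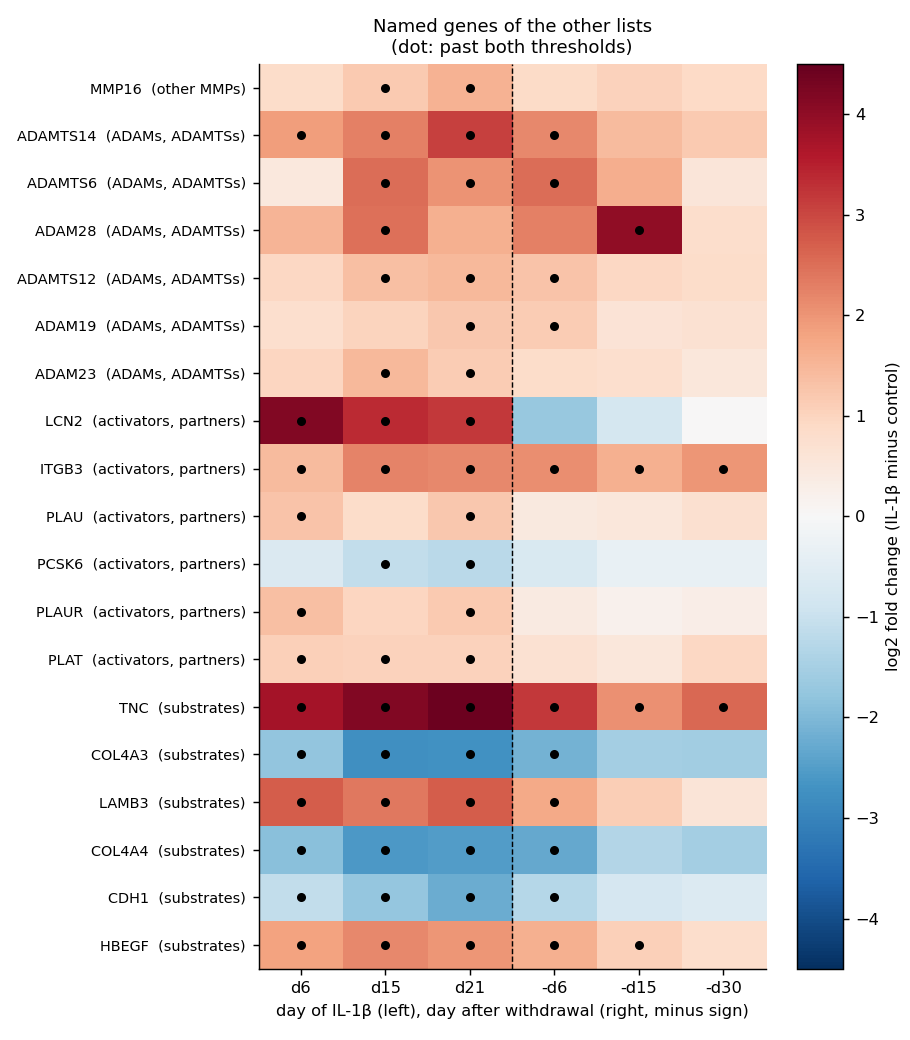
Log2 fold change (colour; IL-1β minus control) of the named genes of the other lists at d6, d15 and d21 of exposure and -d6, -d15 and -d30 after withdrawal (right of the dashed line); dots mark values past both thresholds. Of the genes shown, ITGB3 and TNC carry dots at all 6 times, and COL4A3, COL4A4, CDH1 and PCSK6 have dots below 0.

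The differences between responses were tested directly for the members, between days 21 and 6 of exposure and between days 6 or 30 after withdrawal and day 21. None of the 8 tested members was called by edgeR's quasi-likelihood test or DESeq2 in these 3 comparisons, where 0.0104%, 0.136% and 0.626% of all genes tested were, and 1 member, MMP2 between day 30 after withdrawal and day 21, had an unadjusted p under 0.05. A call at one time point and none at another is therefore not shown to be a difference for MMP2, MMP7 or MMP19.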

How the data were processed

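RNA of 36 A549 libraries was sequenced as single-end reads from a stranded mRNA kit. Per the labels and the submitters' processing notes, the authors used bcl2fastq 2.17, aligned to GRCh37 with TopHat2 2.0.14 and Bowtie2 2.2.5, and deposited raw HTSeq 0.6.1 counts per Ensembl gene. The strand setting and annotation release are not given in the sources used here. No 2 libraries held identical values. HTSeq left 8.48% to 18.6% of reads on no gene and 2.62% to 4.18% ambiguous, and these stayed out of library sizes.

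Genes were filtered by filterByExpr (19180 kept of 39471 with any count), scaled by TMM and fitted with edgeR 4.0.16 (R 4.3.3, limma 3.58.1), glmQLFit and glmQLFTest, over 12 groups with 24 residual degrees of freedom, after a test on simulated data. That test changed only genes of higher level than MMP2 and MMP9, with a single size of change and of spread, so it does not cover low counts. Symbols and positions came from GENCODE v44lift37 for 55665 of 63677 genes, and promoters from RefSeq. Alternatives were DESeq2 1.42.0, its size factors, total counts, other filters, separate fits, a replicate block and leaving out each replicate. The mitochondrial share (over 10%) was added after seeing the data. All members were named, with up to 6 genes per other list called the same way at 2 or more times, ranked by their day 21 change, and 3 genes most correlated with each member called that often. The members and lists were chosen with earlier results of these data known, and 1 gene of the activator list is not reported here and was left out of its counts. Figures were drawn with matplotlib 3.10.9.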

Additional observations from a re-analysis of the deposited data

How the results depend on the processing

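The count of members called moved by more than 1.5 times under 7 settings, beside the leaving out of replicates. A minimum of 10 counts in every sample gave 0 members at days 15 and 21 of IL-1β and days 6 and 15 after withdrawal, since MMP2, MMP7, MMP9 and MMP19 were then not tested. Scaling by total counts gave 0 at day 15 of IL-1β, and no filter gave 1 there (MMP2 at adjusted p = 0.0591). Separate fits of each time point gave 1 at day 15 of IL-1β and 0 at days 6 and 15 after withdrawal. DESeq2's Wald test and the mitochondrial share as a covariate each gave 1 at day 30 after withdrawal, and the fit without the libraries of high mitochondrial share gave 0 at day 15 after withdrawal. Leaving out each replicate of all groups in turn gave 0 to 1 members at day 15 of IL-1β, 0 to 2 at day 21, 0 to 2 at day 6 after withdrawal and 0 at day 15 after withdrawal. The replicate block gave 2 members at day 15, 4 at day 21, 2 at day 6 after withdrawal and 1 at day 15 after withdrawal; it added MMP9 at day 21 (2.10, edgeR adjusted p = 0.0258) and changed no other call. Same-numbered libraries deviated together (r over 0.1) in 14 of 18 pairs (r from -0.34 to 0.72), among them all 3 pairs of day 21 (0.20 to 0.26). Replicates may thus share part of their spread. The negative values, -0.11 and -0.34, came from pairs in which only the control had a high mitochondrial share. The highest, 0.72, came from a pair in which neither library did. The part of the mitochondrial share in these values was not tested. The study's methods name no pairing, so the fit reported has no replicate term and the block is given as an alternative. Further calls that changed included MMP7 at day 15 of IL-1β, gained with DESeq2 (-1.24, adjusted p = 0.0456) and with the covariate (-1.37, edgeR adjusted p = 0.0271), and, lost under total counts, MMP2 at day 15 (1.85, edgeR adjusted p = 0.0831) and MMP19 at days 15 and 21 (1.24 and 1.19, edgeR adjusted p = 0.0516 and 0.0521). The cause of these changes was not tested.

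Directions turned only for values that were not called. Under total counts, the day 21 minus day 6 difference was -0.081 for MMP14, -0.049 for TIMP1 and -0.12 for TIMP2, and with no filter -0.0062 for MMP14 and -0.023 for TIMP2, with -0.010 for TIMP2 at a minimum of 10 counts. The TIMP1 difference of day 30 after withdrawal minus day 21 was -0.016 with DESeq2's size factors, -0.0054 with no filter and -0.012 with DESeq2's test. With the covariate it was -0.086, and MMP14 at day 21 was 0.033, MMP24 -0.18 and -0.089 at days 6 and 15 after withdrawal and -0.013 for its day 6 minus day 21 difference. Without the libraries of high mitochondrial share, which leaves 1 control at days 6 and 15 after withdrawal, day 30 after withdrawal was -0.060 for MMP14 and -0.079 for MMP24, MMP24 at day 6 after withdrawal was -0.21, the day 21 minus day 6 difference was -0.15 for MMP2, -0.078 for TIMP1 and -0.033 for TIMP2, the difference of day 30 after withdrawal minus day 21 was -0.011 for MMP14, -0.38 for TIMP1 and -0.028 for TIMP2, and that of day 6 after withdrawal minus day 21 was 1.18 for MMP9. Leaving out a replicate gave ranges from -0.20 to 0.12 (MMP14), -0.00080 to 0.29 (MMP19), -0.096 to 0.76 (MMP2), -0.069 to 0.27 (MMP24), -0.10 to 0.18 (TIMP1) and -0.094 to 0.11 (TIMP2) for day 21 minus day 6. It gave -0.21 to 0.16 for MMP14 and -0.070 to 0.57 for TIMP1 at days 6 and 15 of IL-1β, -0.13 to 0.13 and -0.15 to 0.40 for MMP24 at days 6 and 15 after withdrawal, and -0.069 to 0.37 (MMP14), -1.42 to 0.0081 (MMP2) and -0.091 to 0.41 (MMP24) at day 30. The differences from day 21 ranged from -0.66 to 0.82 (MMP9, day 6 after withdrawal) and -0.38 to 0.30 (TIMP1, day 30).

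Over all alternatives, the other lists gave 2 to 6 calls among activators and partners, 2 to 7 among ADAM and ADAMTS genes and 5 to 10 among substrates at day 15 of IL-1β, and 3 to 8, 3 to 6 and 5 to 12 at day 21. At day 6 after withdrawal they gave 0 to 2, 0 to 5 and 0 to 8, at day 15 after withdrawal 0 to 1, 0 to 2 and 0 to 8, and at day 30 after withdrawal 0 to 1, 0 to 1 and 0 to 5. All genes called numbered 284 to 1000 at day 15 against 814 in the fit reported, and 0 to 314 at day 30 after withdrawal against 172. Total counts moved the median of all genes at day 15 after withdrawal to 0.21. Depth limits MMP1, MMP2, MMP9 and TIMP3 most.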
